A study of Caenorhabditis elegans with 2 samples.

Results

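Of the 276 tRNA genes annotated on the X chromosome of *Caenorhabditis elegans*, 206 (74.6%, exact 95% confidence interval 69.1 to 79.7%) had a summit of an FKH-3 ChIP-seq region within 100 bp of the gene. These 206 genes are described here. They were selected on that summit, in the list of 30000 regions that the authors deposited for the pooled replicates on ce11 (WBcel235), so their presence in that list is not a finding. All 6 nuclear chromosomes together hold 612 tRNA genes, of which 336 are autosomal, and 211 of the autosomal genes (62.8%) met the same criterion. The list of 30000 holds peaks together with background, and 8.9% of all X positions for a gene of the median tRNA length (72 bp) had a pooled summit within the same distance.

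ChIP-seq recovers the DNA bound by a protein and sequences it. FKH-3 is a forkhead transcription factor. All worms were of strain OP594, which carries the *unc-119* mutation tm4063 on chromosome III and the transgene wgIs594, and expressed FKH-3 tagged with GFP-FLAG at its C terminus. Whole young adults of mixed sex were taken 63 h after synchronisation as starved L1 larvae. The 2 biological replicates formed 1 group, and no condition or genotype was compared with another. The antibody was against GFP according to the sample descriptions, while the antibody field names FKH-3. Chromatin was sheared by sonication. The line is transgenic, untagged worms are not part of the group, and the matched control was not analysed here. Whole animals were used, so tissues cannot be told apart. Read depth is unknown, because the lists hold no read counts. Regions were ranked by the signal the authors gave each of them, a score whose scale is not stated. Rank 1 is the highest signal of a list. The 441 pooled regions that passed the authors' irreproducible discovery rate (IDR) threshold were the 441 highest of the pooled list, or 1.47% of it. The IDR measures how consistently regions rank between lists. Here a place in the IDR list equals a high pooled rank, and does not show that a region was high in each replicate.

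RNA polymerase III transcribes tRNA genes. Its factor TFIIIC binds promoter elements inside the gene, called the A box and the B box, and TFIIIB is then placed just upstream of the start. Transcription stops at a run of T after the gene. Animal genomes hold many copies of each tRNA gene, and the copies often have the same sequence.

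The following 6 genes show these parts. Each had the best pooled rank of its isotype (the amino acid its tRNA carries) among genes with no identical copy off X, and isotypes were taken in order of rank. Each sequence is the gene on its own strand with the 30 bases after it, from the RefSeq genome WBcel235. Capitals mark an A box word (TGGCNNAG or TAGCNNAG), the B box word (GTTCNANNC) and the first run of at least TTTT after the gene.
C04A11.t1 (Leu, chrX:13665555-13665673, plus strand, rank 17): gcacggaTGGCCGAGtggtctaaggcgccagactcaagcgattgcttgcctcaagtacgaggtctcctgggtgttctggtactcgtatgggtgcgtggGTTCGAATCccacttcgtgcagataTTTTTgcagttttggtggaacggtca
R11.t1 (Tyr, chrX:16209769-16209852, minus strand, rank 45): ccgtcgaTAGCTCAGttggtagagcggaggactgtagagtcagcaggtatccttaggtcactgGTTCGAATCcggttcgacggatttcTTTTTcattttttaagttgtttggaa
C02B4.t1 (Ile, chrX:12661164-12661247, plus strand, rank 166): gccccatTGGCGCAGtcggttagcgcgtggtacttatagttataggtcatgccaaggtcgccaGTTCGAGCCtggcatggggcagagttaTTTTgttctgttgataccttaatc
F09B9.t1 (Arg, chrX:10145156-10145228, plus strand, rank 238): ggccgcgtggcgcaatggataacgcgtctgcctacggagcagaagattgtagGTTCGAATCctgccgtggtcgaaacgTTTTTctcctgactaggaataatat
F18G5.t1 (Ala, chrX:9237810-9237881, plus strand, rank 361): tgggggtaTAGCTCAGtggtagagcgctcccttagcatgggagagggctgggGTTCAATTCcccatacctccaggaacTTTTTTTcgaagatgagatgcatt
C28G1.t2 (Gly, chrX:8846721-8846792, plus strand, rank 453): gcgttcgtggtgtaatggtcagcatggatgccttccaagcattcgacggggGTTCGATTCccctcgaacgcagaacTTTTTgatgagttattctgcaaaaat
The 6 genes share the B box and the T run. F09B9.t1 and C28G1.t2 hold neither spelling of the A box word, and the first 3 genes are interrupted by a tRNA intron, so that their B box lies farther from the 5′ end.

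The same parts were present in nearly all the genes, listed or not. The B box word occurred in 202 of the 206 listed genes (98.1%) and in 66 of the 70 X-linked tRNA genes without a pooled summit. It was present in all 60 genes of the IDR list and in 319 of the 336 autosomal genes. Among all X windows of 72 bp, read on both strands, 1.33% held it. The 4 listed genes without this spelling were C16B8.t2 (Pro, rank 477), F22F1.t6 (Met, rank 8610), C16B8.t3 (Pro, rank 16852) and F38E9.t1 (Met, rank 19311). An A box word occurred in 87 listed genes (42.2%), in 24 of the 70 unlisted genes (34.3%) and in 1.37% of windows. All 206 listed genes had TTTT within 30 bp after their 3′ end, against 67 of 70 unlisted genes and 35.0% of X windows of 30 bp. Absence of a word means only that these letters were not found in the window.

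The listed genes ranged from near the top of the pooled list to its end. Their best-ranked summits had ranks from 14 to 29988, with a median of 1124.5 and an interquartile range of 327.25 to 6277.75. The corresponding signals ranged from 299 to 34.8. Within the first 1000 pooled regions lay the summits of 100 of the genes, and within the first 5000 those of 149. The IDR list held a summit at 60 of the 206 (29.1%, exact 95% interval 23.0 to 35.8%), where 0.134% of X windows had one. That rate is given as background only, because the genes were chosen on the list of which the IDR regions are the top. By region, the 206 genes had 203 pooled regions out of 5894 on X, and 54 of the 87 X regions in the IDR list lay at them. Each of 8 regions served a pair of genes, so neighbouring genes are not independent.

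The strongest X-linked locus was a tandem pair of alanine tRNA genes in an intron of *him-4*, the hemicentin gene, on its strand. F15G9.t1 (chrX:9743589-9743660) and F15G9.t2 (chrX:9743747-9743818) shared the region of pooled rank 14. F15G9.t1 had rank 33 in replicate 1 and rank 10 in replicate 2. F15G9.t2, 86 bp downstream, had rank 1413 in replicate 1 and rank 10 in replicate 2. The replicate 1 region of rank 33 also covered F15G9.t2, with its summit 102 bp from that gene, just past the 100 bp limit, and rank 1413 belonged to another region. The locus was thus high in both replicates. The leucine tRNA gene C04A11.t1 came next, with ranks 17 pooled, 13 in replicate 1 and 20 in replicate 2. It lies between genes and has no identical copy in the genome. A divergent pair followed, the glutamate gene M02F4.t2 and the glycine gene M02F4.t1, 116 bp apart on opposite strands. Their shared region had ranks 19 pooled, 72 in replicate 1 and 14 in replicate 2, and its summit fell between the genes.

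The next loci were also high in both replicates. The valine gene R04D3.t2 had ranks 25 pooled, 56 in replicate 1 and 19 in replicate 2. The lysine gene W03G11.t1 had ranks 43, 30 and 79 in the same order. The tyrosine gene R11.t1 had ranks 45, 78 and 71. R11.t1 heads a locus of 4 identical tyrosine genes, of which R11.t4 had pooled rank 7015, R11.t3 had 13005 and R11.t2 was not listed. The alanine gene T07H6.t2 had ranks 46, 140 and 47, and the threonine gene R01H5.t1 had 50, 446 and 34. A further pair of genes lie in introns and on the strand opposite to the host. These are C02B4.t2 (Tyr, ranks 51, 71 and 40), in *nhr-17*, a nuclear hormone receptor gene, and F41D9.t3 (Asn, ranks 55, 16 and 200), in *sulp-3*, a sulfate permease family gene. The divergent serine pair C53C7.t1 and C53C7.t2 shared a region with ranks 73, 161 and 122, and the alanine gene T18D3.t1 had 77, 159 and 63. These 12 loci of best rank covered 10 isotypes.

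The genes next to the IDR limit had close pooled ranks on both sides, which follows from how they were chosen. Their ranks in replicate 1 varied widely on either side. The last genes inside the IDR list were F55G7.t2 (Thr, pooled rank 384) and R11B5.t2 (Ile, pooled rank 433). F55G7.t2 had ranks 6119 and 230 in replicates 1 and 2, and R11B5.t2 had 2263 and 306. The first genes outside it were C28G1.t2 (Gly, pooled rank 453, then 623 and 471) and Y59E1B.t2 (Pro, pooled rank 455, then 9068 and 400). At the 100 bp limit, the summits farthest from a listed gene were 97 bp from F46G11.t1 (Pro, rank 191) and 96 bp from K02A4.t2 (Ala, rank 461). The nearest summits to unlisted genes were 111 bp from R04E5.t3 (Gly) and 113 bp from both F22F1.t8 (Ser) and E01H11.t1 (Met). The lowest ranks were those of C25F6.t2 (Met, 28652) and R04E5.t2 (Gly, 29988). Neither had a summit within 100 bp in replicate 1, where the nearest to C25F6.t2 was 121 bp away with rank 5750. In replicate 2 their ranks were 17016 and 10063.

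Replicate 2 held more of the genes than replicate 1 and ranked them higher. A summit lay within 100 bp of 167 genes (81.1%) in the list of replicate 1 and of 191 (92.7%) in that of replicate 2, against 8.6% and 8.83% of X windows. Both replicates had one at 155 genes (75.2%, exact 95% interval 68.8 to 81.0%). Replicate 1 alone had one at 12 genes and replicate 2 alone at 36. The limit of 100 bp bears on these counts: of the 39 genes without a summit in replicate 1, 19 had one within 250 bp, as had 9 of the 15 without one in replicate 2. The genes with none within 100 bp in either replicate were Y7A5A.t3 (pooled rank 8199), K01A12.t3 (11236) and K11E4.t3 (27957). The median rank was 2821 over the 167 genes of replicate 1 and 1276 over the 191 of replicate 2. Of the 155 genes in both, 113 (72.9%) had the better rank in replicate 2. At the 70 unlisted X-linked genes, replicate 1 had a summit at 14, replicate 2 at 10 and both at 0. Listed and unlisted genes were told apart by the pooled list, which comes from these replicates. Their replicate shares therefore follow in part from that choice and are no independent replication, and the X windows give background only. Among all 276 X-linked tRNA genes, listed or not, replicate 1 had a summit at 65.6%, replicate 2 at 72.8% and both at 56.2%.

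**Figure D1:**
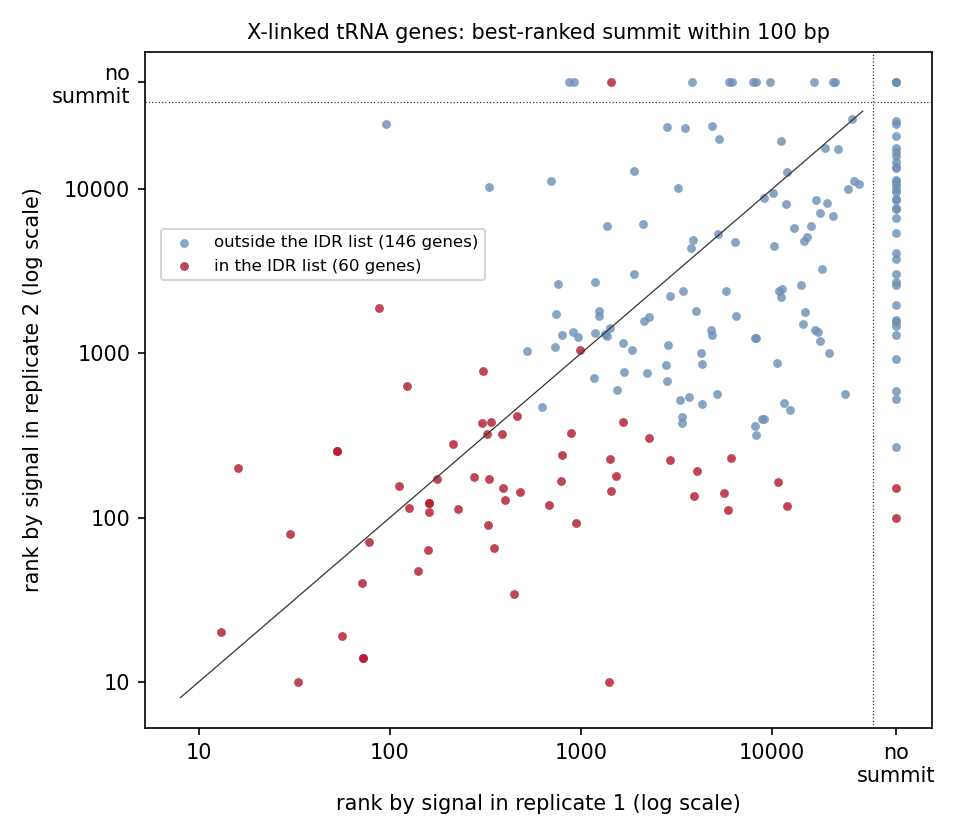
Rank of the best summit within 100 bp of each of the 206 genes in replicate 1 (horizontal) and replicate 2 (vertical), both on log scales with the strongest at the lower left. Points beyond the dotted lines have no summit within 100 bp in that replicate, the diagonal marks equal ranks, and 113 of the 155 genes in both replicates lie below it. Most genes of the IDR list (red, 60 genes) are in the lower part, within the first 441 of replicate 2.

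Genes of the IDR list differed between replicates as well. Of these 60, a summit was present in both replicates at 57. It ranked within the first 441 of replicate 1 at 34, of replicate 2 at 55 and of both at 31. The glutamate gene F12D9.t2 had pooled rank 91 and rank 99 in replicate 2 but no summit within 100 bp in replicate 1, where a region of rank 180 had its summit 125 bp away. C18A11.t2 (Arg) had pooled rank 284, with rank 12036 in replicate 1 and 118 in replicate 2. F52H2.t1 (Asp, pooled rank 332, in an intron of *aat-3*) had rank 10794 and 165, and F11A1.t2 (Glu, pooled rank 212) had 5919 and 111. In the last 3 of these the summits of both replicates were within 12 bp of the gene, and the pooled rank was nearer to that of replicate 2. The reverse case was F23D12.t1 (Pro), with rank 95 in replicate 1, 24935 in replicate 2 and 916 in the pooled list. These genes were named for their gap after the values had been seen.

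Every isotype had listed genes, but the isotypes differed in how high the genes ranked. RefSeq gave an isotype for 273 of the 276 X-linked genes. Alanine had all 13 genes listed, 8 of them in the IDR list, and a median rank of 361. Leucine followed with 15 of 17 listed, 6 in the IDR list and a median of 581. Threonine had 11 of 14, 3 and 614, and glycine had 16 of 20, 5 and 793.5. The largest isotype, arginine, had 20 of 27 listed, 2 in the IDR list and a median rank of 2061. Its best gene, F09B9.t1, had ranks 238 pooled, 1523 in replicate 1 and 180 in replicate 2.

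Cysteine and methionine had listed genes without any in the IDR list. Cysteine had 5 of 7 listed, the best being R04E5.t5 (ranks 1005, 4896 and 1291). Methionine had 6 of 8, the best being C02F12.t1 (514, 1540 and 597), and a median of 8557. Histidine had the lowest share listed, 4 of 9, with ZC449.t1 best (255, 309 and 778). Asparagine was split, with F41D9.t3 and F52H2.t2 (ranks 55 and 218) in the IDR list and T04F8.t1 and ZK154.t5 far down the list, at 23813 and 23337. The other best genes were R04A9.t1 (Gln, 99, 160 and 108), C42D8.t1 (Ile, 113, 350 and 65) and H06A10.t1 (Pro, 116, 111 and 156). T28B4.t1 (Phe) had 118, 942 and 93, and F38G1.t2 (Asp) had 142, 402 and 128. The tryptophan gene *sup-7*, known from mutants that suppress amber stop codons, had 283, 796 and 239. On the autosomes 14 of 21 alanine genes were listed and 8 were in the IDR list, and 4 of 6 cysteine genes were in the IDR list. With as few as 3 to 20 listed genes per isotype, no order of isotypes was tested.

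**Figure D2:**
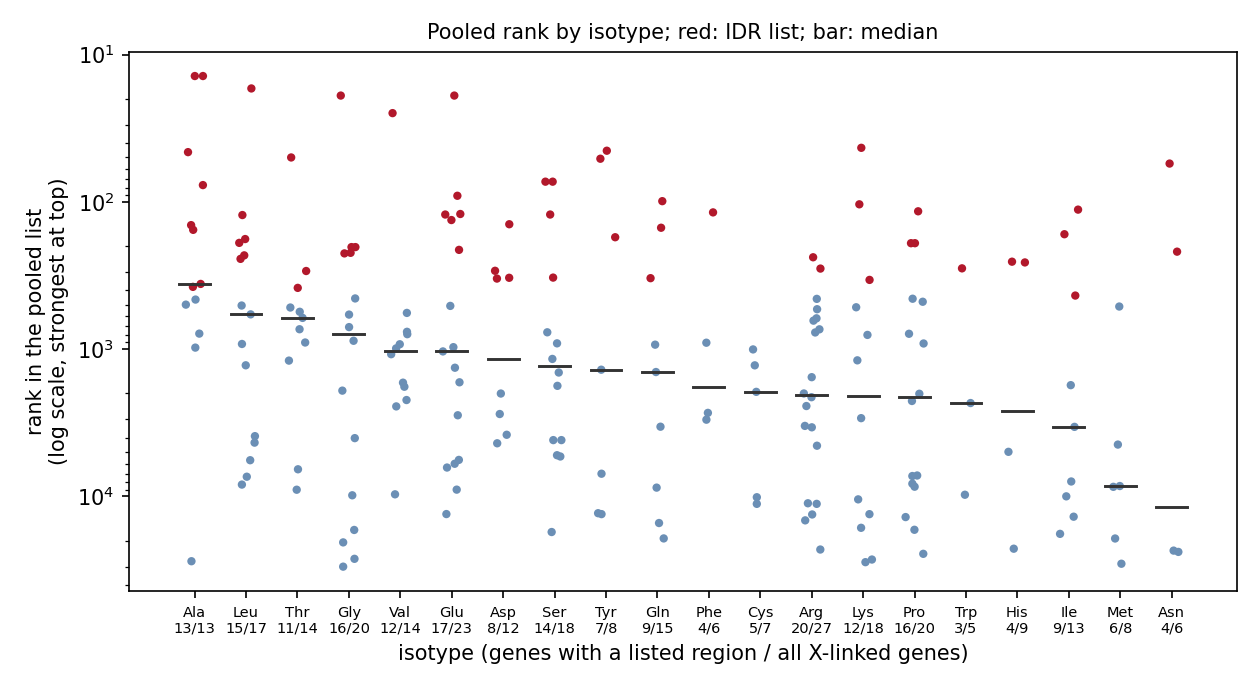
Pooled rank of each listed gene (log scale, strongest at the top) by isotype, ordered by median (bar), with listed and all X-linked genes under each name. Red points are in the IDR list: alanine has 8 and lies highest, while cysteine and methionine have 0. The listed gene without an isotype is not drawn.

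Genes of the same sequence differed widely in rank. The 276 X-linked genes had 106 distinct sequences, and 203 of them fell into 33 families of 2 or more identical X genes. Each family had a listed gene, and 25 also had an unlisted one. In 22 families some listed genes were in the IDR list and others were not, and in 18 a gene in the IDR list had an unlisted identical copy. Of the 30 families with 2 or more listed genes, 26 had a worst rank at least 10 times the best. The alanine family of F15G9.t2 had all 7 X genes listed, from rank 14 to 27547 for F48E3.t1. The glycine family of M02F4.t1 had 8 of 11 listed, from 19 to 29988 for R04E5.t2. By contrast the alanine family of F15G9.t1 had its 3 X genes at 14, 46 and 155, all in the IDR list.

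**Figure D3:**
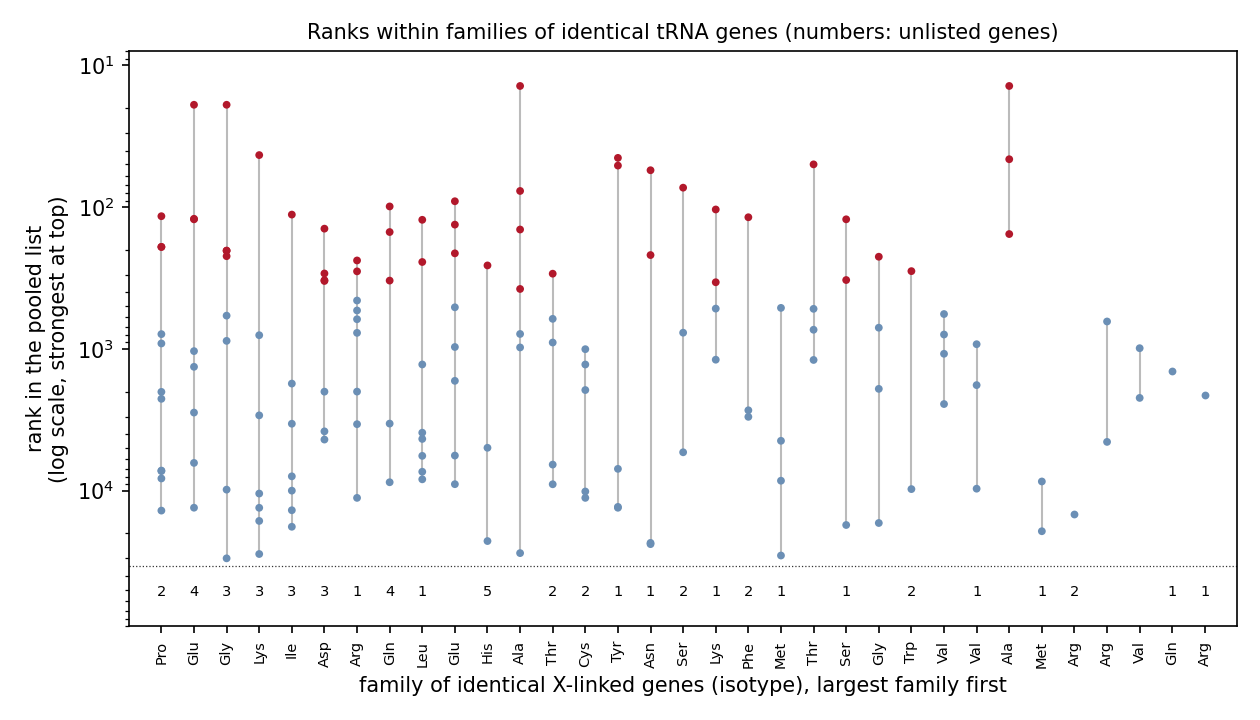
Pooled rank (log scale, strongest at the top) of the listed genes in each of 33 families of identical X-linked tRNA genes, joined by a line. Red points are in the IDR list, and the numbers below the dotted line count the unlisted genes of the family. In 26 families the ranks span a factor of 10 or more.

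The flanks of identical genes are where their sequences differ, and 2 families found only on X are shown for that reason. They were chosen after their values had been seen. The arginine family has 10 genes, 9 of them listed, and all 10 carry the gene sequence below, with the B box in capitals. F09B9.t1 had the best pooled rank, 238, with the summit 69 bp from the gene. K01A12.t3 (chrX:8624460-8624532, minus strand, intron of K01A12.3) had the worst, 11236. It shared that region with the cysteine gene K01A12.t2, 106 bp away, and the summit lay 73 bp from K01A12.t3. The nearest summits to K01A12.t3 in replicates 1 and 2 were 162 and 109 bp away, past the limit. T06H11.t3 (chrX:10132971-10133043, minus strand), in an intron of the potassium channel gene *unc-58*, was unlisted, with the nearest pooled summit 293 bp away. The 40 bases before and 30 bases after each gene are on the gene's strand, with runs of T in capitals.
Arginine family, gene: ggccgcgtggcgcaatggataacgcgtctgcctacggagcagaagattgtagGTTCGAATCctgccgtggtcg
F09B9.t1, before: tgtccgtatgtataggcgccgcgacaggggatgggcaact
F09B9.t1, after: aaacgTTTTTctcctgactaggaataatat
K01A12.t3, before: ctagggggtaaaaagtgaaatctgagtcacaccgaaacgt
K01A12.t3, after: aaaacatttaaaTTTTTTTattcgatgttt
T06H11.t3, before: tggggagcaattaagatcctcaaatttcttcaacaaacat
T06H11.t3, after: aaaattcaTTTTatctaaatgaaccTTTTT
The leucine family has 9 genes, 8 of them listed. F14B8.t1 (chrX:6903114-6903195, minus strand, intron of *pes-23*) had ranks 123 pooled, 227 in replicate 1 and 112 in replicate 2. Its pooled summit lay inside the gene. C05C9.t1 (chrX:11163358-11163439, minus strand) had pooled rank 8313, with the summit 80 bp from the gene, and rank 10578 in replicate 2. Its nearest summit in replicate 1 was 104 bp away, with rank 11841. C05E7.t3 (chrX:12942458-12942539, plus strand, intron of *gmap-2*) was unlisted, with a pooled summit 182 bp away and a summit of rank 1534 in replicate 1. Capitals mark the A box, the B box and runs of T.
Leucine family, gene: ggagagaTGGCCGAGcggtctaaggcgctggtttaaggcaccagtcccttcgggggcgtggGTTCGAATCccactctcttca
F14B8.t1, before: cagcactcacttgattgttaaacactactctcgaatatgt
F14B8.t1, after: gttaTTTTTTTgaaattacacacttacagg
C05C9.t1, before: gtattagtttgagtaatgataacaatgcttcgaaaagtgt
C05C9.t1, after: ggcTTTTTTgtatttcTTTTcagattgcta
C05E7.t3, before: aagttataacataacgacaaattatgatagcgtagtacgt
C05E7.t3, after: gttcTTTTTTTTTaatttaTTTTgcaggtt
In each family the whole gene, with its B box and in the leucine family an A box word, is the same in the best-ranked, the worst-ranked and the unlisted gene. Each gene is followed by a T run.

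Sequence repeated elsewhere bears on how reads are placed, and the sources used here do not say how reads with several matches were treated. An identical gene elsewhere in the genome existed for 167 of the 206 listed genes (81.1%) and for 54 of the 60 in the IDR list. Of the 36-base words within 100 bp of a gene, a median of 20.3% recurred elsewhere for listed genes (range 0 to 43.3%) and 20.6% for unlisted ones (0 to 100%). No listed gene had 50% or more of its words recurring, against 7 of the 70 unlisted genes. Their part in which genes were listed was not tested.

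A smaller share of listed than of unlisted genes had a tRNA gene close by. Another tRNA gene lay within 500 bp of 66 listed genes (32.0%, exact 95% interval 25.7 to 38.9%) and of 42 of the 70 unlisted genes (60%). Read the other way, 140 of 168 lone genes (83.3%) and 66 of 108 genes with a neighbour (61.1%) were listed. The IDR list held 45 of the lone genes (26.8%) and 15 of those with a neighbour (13.9%). Genes joined within 500 bp formed 211 loci on X, 182 of them with a listed gene. Of the 43 loci with several genes, 42 had a listed gene, 14 had every gene listed and 28 were mixed. A single summit cannot lie within 100 bp of every gene of a wide locus, although a locus can hold several summits. The part of this limit in the counts by gene was not tested. Counted by locus, the IDR list held 45 of 168 lone genes (26.8%) and 7 of 30 loci of 2 genes (23.3%). Of the larger loci it held 0 of 8 with 3 genes, 1 of 2 with 4, 1 of 2 with 5 and 0 of 1 with 6. These counts used the summits that chose the genes, and no test was made.

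The largest clusters varied in how many of their genes were listed. The 6 histidine genes at F28H6 had 1 listed gene, F28H6.t2 (ranks 4982 pooled, 21004 in replicate 1 and 6851 in replicate 2). All 36-base words around the unlisted F28H6.t3 and F28H6.t4 recurred elsewhere, and 66.7% and 88.2% did so around F28H6.t7 and F28H6.t6. Around F28H6.t5, also unlisted, 49.4% recurred, and around the listed F28H6.t2 26.2%. The 5 glutamine genes at H08J11, in an intron of the apical junction gene *ajm-1*, had 1 listed gene as well, H08J11.t3 (ranks 330, 88 and 1896). There 11.8 to 21.1% of words recurred around the unlisted genes and 18.6% around H08J11.t3. The 5 genes at K01A12 had 3 listed, of ranks 10131 to 11236. Each locus of 4 genes, the tyrosine genes at R11 and the genes F22F1.t4 to F22F1.t7, had 3 listed. Loci with no listed gene were small, such as the lone arginine gene Y75D11A.t2, with the nearest pooled summit 2922 bp away. C28G1.t4 (Gly) and C28G1.t5 formed an unlisted pair with the nearest summits 2178 and 2442 bp away. Y75D11A.t2, C28G1.t5 and F52E10.t2 were also the 3 unlisted genes without TTTT after the gene.

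Regions shared by 2 neighbouring genes occurred in each arrangement within a cluster. Of 24 divergent neighbour pairs (median gap 160.5 bp), 10 had both genes listed and 5 shared a region. Of 16 convergent pairs (177.5 bp), 4 had both listed and 2 shared one. Of 25 tandem pairs (348 bp), 7 had both listed and 1 shared one. Among pairs with both genes listed, the share with a common region was thus the same for divergent (5 of 10) and convergent pairs (2 of 4). The tandem gaps were longer, and the part of gap length in these counts was not tested.

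Most listed genes lay between protein-coding genes. Intergenic were 133 (64.6%) and intronic 72 (35.0%), and 1, the glutamate gene C28G1.t1 (ranks 133, 176 and 172), overlapped an exon of C28G1.2. The unlisted genes had nearly the same split, 47 intergenic and 23 intronic. The IDR list held 36 of the 133 intergenic genes (27.1%) and 23 of the 72 intronic ones (31.9%), with median pooled ranks of 1037 and 1407.5. A protein-coding start lay within 500 bp of 25 listed genes (12.1%) and of 8 of the 70 unlisted ones.

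Among genes inside a protein-coding host, those on the strand opposite to the host ranked higher. The 73 hosted genes were split evenly, with 36 opposite and 37 on the same strand. Of the opposite genes 16 were in the IDR list (44.4%, exact 95% interval 27.9 to 61.9%), and of the same-strand genes 8 (21.6%, 9.83 to 38.2%). The median pooled rank was 504 for opposite and 4315 for same-strand genes. Over the genes with a summit in a replicate, it was 2263 against 6563.5 in replicate 1 and 599 against 1793.5 in replicate 2. The replicates are the data behind the pooled list, so these values are no independent support for its order. Among all hosted X-linked tRNA genes, 36 of 45 opposite genes (80.0%) and 37 of 51 same-strand genes (72.5%) were listed. The intervals of the IDR shares overlap, and no test was made because the ranks come from the list that chose the genes.

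Hosts of the opposite-strand genes in the IDR list included *egl-17*, a fibroblast growth factor gene (F38G1.t2, rank 142), and *lev-9*, needed for acetylcholine receptor clustering (T07H6.t1, rank 155). They also included *cat-1*, the vesicular monoamine transporter gene (E03E2.t1, rank 327), *lgc-4*, a ligand-gated channel gene (F18G5.t1, rank 361), and *tbc-12* (R11B5.t2, rank 433). Same-strand hosts were *him-4* with 2 genes, *fbxl-4* (T28B4.t1, rank 118), C28G1.2, C03B1.2 (*sup-7*), F59C12.3, *aat-3* and F43C9.2. The introns of *tbc-12* and K01A12.3 held 3 listed genes each, of which *tbc-12* had 1 in the IDR list and K01A12.3 had 0.

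The summits lay over the genes and around them, with a broad spread. The best-ranked summit was inside the gene at 99 of 206 genes (48.1%, exact 95% interval 41.1 to 55.1%), upstream at 63 (30.6%) and downstream at 44 (21.4%). The median position was 29.5 bp from the 5′ end along the gene, with quartiles at -17 and 68.75 bp. This lay before the B box, whose median start was at position 53. Genes inside and outside the IDR list had like medians, 28.5 and 30.5 bp. Within the IDR list 34 summits were inside, 14 upstream and 12 downstream. Lone genes had a median of 34 bp and genes with a neighbour 1 bp. The limit of 100 bp sets the outer edge of this distribution. It reaches equally far on both sides of the gene, so it also draws the median towards the middle of the gene. The median and its place before the B box therefore do not show a preferred position. The share inside the gene was not set against the share that the limit alone would give.

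**Figure D4:**
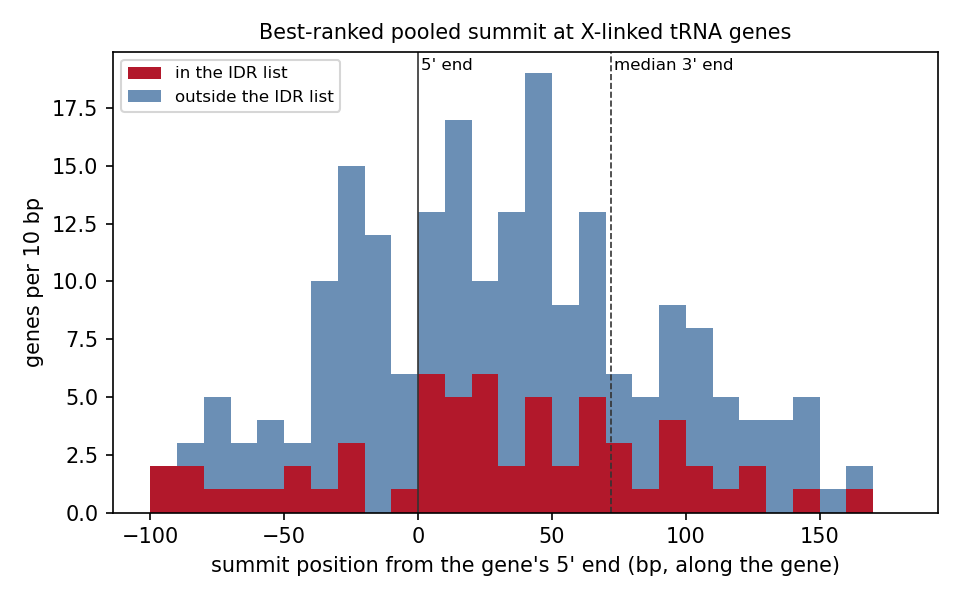
Number of genes per 10 bp by position of the best-ranked pooled summit relative to the 5′ end of the gene (bp along the gene, stacked, red for the IDR list). The solid line marks the 5′ end and the dashed line the median 3′ end. The median position is 29.5 bp, and 99 of 206 summits are inside the gene.

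Genes interrupted by a tRNA intron, which is spliced out of the transcript, were few and often high. Of 12 such X-linked genes 11 were listed, and 6 of these were in the IDR list, with a median pooled rank of 179. The 6 were C04A11.t1 and F42F12.t1 (Leu, ranks 17 and 179), R11.t1, C02B4.t2 and K09A11.t1 (Tyr, ranks 45, 51 and 174) and C02B4.t1 (Ile, rank 166). The other 5 ranged from rank 923 (F02D10.t3, Leu) to 13192 (F56F10.t1, Tyr). All but C02B4.t1 of the 11 are leucine or tyrosine genes, so intron and isotype moved together, and their parts in these ranks were not tested.

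Listed genes were spread along the whole X chromosome. Between 8 and 10 Mb, where 71 of the tRNA genes lie, 45 were listed and 11 were in the IDR list. Between 2 and 4 Mb all 16 were listed, with 8 in the IDR list. Between 12 and 14 Mb 38 of 45 were listed and 14 were in the IDR list, and between 16 and 18 Mb 22 of 34 and 3.

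X-linked tRNA loci were more often in the IDR list than autosomal ones. This comparison takes all annotated tRNA loci, listed or not, since position on X does not depend on the signal. An IDR summit lay within 100 bp of 54 of 211 X loci (25.6%, exact 95% interval 19.8 to 32.0%) and of 50 of 305 autosomal loci (16.4%, 12.4 to 21.0%). The odds ratio was 1.75 (Fisher's exact test, two-sided, 1 test, p = 0.0138). Windows of the same length had an IDR summit at 0.134% of X and 0.116% of autosomal positions, and a pooled summit at 8.9% and 7.82%. The difference depended on the counting and on the replicate. Counted by gene it was 60 of 276 against 54 of 336 (odds ratio 1.45, exact p = 0.0769), which misses the 0.05 threshold. With the first 441 regions of replicate 1 in place of the IDR list it was 33 of 211 against 33 of 305 (odds ratio 1.53, exact p = 0.11). With those of replicate 2 it was 57 against 41 (odds ratio 2.38, exact p = 0.000151). Over loci of 1 gene, an alternative chosen after seeing the data, it was 45 of 168 against 44 of 274 (odds ratio 1.91, exact p = 0.00726).

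Regions are not biological replicates, so these p-values describe the lists, and the intervals cover counting error only. X-linked and autosomal tRNA genes also differ in place. A protein-coding start lay within 500 bp of 33 of 276 X genes and of 98 of 336 autosomal genes, and 65.2% against 41.4% were intergenic. The part of place in the difference was not tested. The share of recurring 36-base words was alike, with medians of 20.4% and 20.3%.

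**Figure D5:**
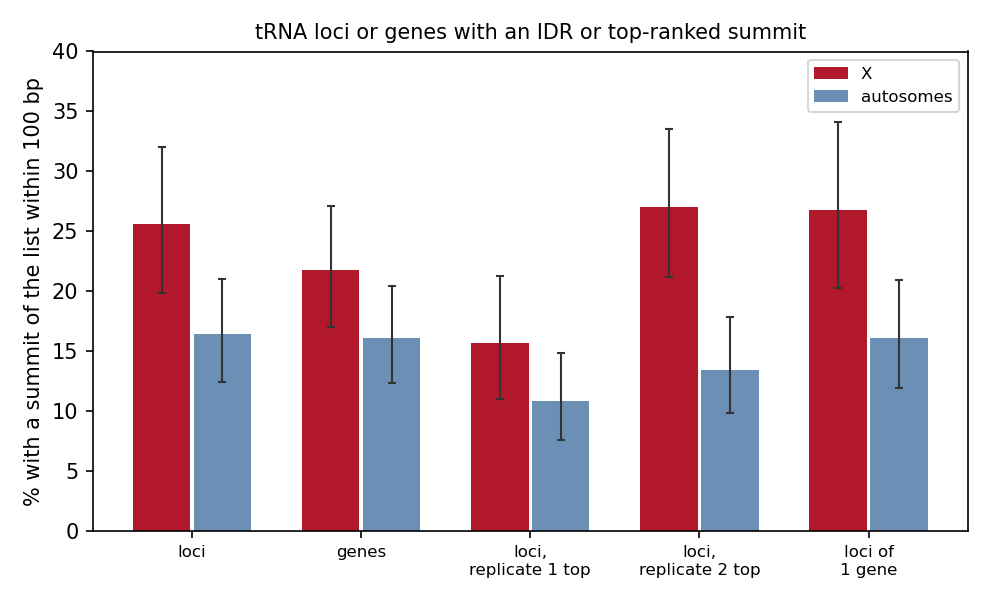
Percent of tRNA loci or genes on X (red) and the autosomes (blue) with a summit within 100 bp from the IDR list, or from the first 441 regions of replicate 1 or of replicate 2. Bars are shares of all annotated loci or genes and lines are exact 95% intervals. X is at 25.6% and the autosomes at 16.4% by locus, and the gap is smallest in replicate 1 and when genes are counted singly.

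Genes for the machinery that transcribes tRNA genes and small nuclear RNA genes were looked up in the same pooled list, over the gene and 500 bp upstream. Of the 11 names searched, 7 had a pooled summit and 4 (*rpc-11*, *brf-1*, *tftc-1* and *tftc-5*) had none. By the same criterion 57.5% of all 19973 protein-coding genes had a pooled summit and 1.48% an IDR summit, so 7 of 11 is no result about this list of genes. The highest was *snpc-4*, a subunit of the complex that activates small nuclear RNA genes, with rank 1. The polymerase III subunit gene *rpc-2* had rank 302, within the IDR list. The TFIIIC subunit gene *tftc-3* had rank 5985 and *tbp-1*, the TATA-binding protein gene, 6531. The other names were *maf-1* at 7845, *rpc-1* at 22023 and *mafr-1*, the gene of the polymerase III repressor MAF1, at 22436. The names *maf-1* and *mafr-1* were searched as alternatives for that repressor, so *maf-1* is not a further member of the machinery. Genes longer than a tRNA gene have more room for a summit of this list, so these ranks are not comparable in number with those of the tRNA genes.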

How the data were processed

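The authors deposited ChIP-seq regions in narrowPeak format: for each replicate and the pooled replicates the input to the IDR step, and for the pooled replicates the regions past its threshold. Signal is the authors' deposited score, on a scale not stated, and was used only as a rank within a list. No source used here gives the aligner, the peak caller or their settings. The lists on ce10 were not used. Summits on ce11 were joined to tRNA genes of Ensembl 115 (WBcel235), a summit counting within 100 bp of the gene. Isotypes and sequence came from RefSeq, which named all 612 genes. Sequence words were searched on the gene's strand. Loci joined genes within 500 bp. Intervals are exact Clopper-Pearson 95% binomial intervals. X and autosomal loci were compared by Fisher's exact test, two-sided, at 0.05. Python 3.11.15 was used with pandas 2.3.3 and numpy 2.4.6, and with scipy 1.17.1 for the tests and matplotlib 3.10.9 for the plots. The code of the comparison was tested on simulated data, and passed in 20 of 20 draws with a planted difference. The planted difference was larger than that in the data, and no draw lacked one. These draws therefore check the code only and say nothing about the reported odds ratio.

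The genes, words and lists were chosen with earlier results of these data known. Named genes were those of the 12 loci of best rank, next to each limit, of worst rank, in the largest loci with and without a listed gene, and best of each isotype with 5 or more X genes. Others were named after their values were seen.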

Additional observations from a re-analysis of the deposited data

How the results depend on the processing

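No paired analysis was possible because all samples belong to 1 group. The share of the listed X-linked genes in the IDR list (29.1%) was 19.4% with its first 220 regions, and 19.9 to 30.8% when the first 441 regions of 1 replicate took its place with the other left out. The share with a summit in both replicates (75.2%) was 47.5% for summits inside the gene (0 bp), 84.5% at 250 bp, 82.4% for regions overlapping the gene, 45.1% within the first 5000 of each replicate and 15.0% within the first 441. Summits inside the gene (48.1%) were 100% at 0 bp by construction and 49.2 to 51.2% with 1 replicate left out. A tRNA gene neighbour (32.0%) was found for 19.2% at 0 bp, 40.3% with neighbours within 1000 bp and 19.4% within 200 bp, and 30.4 to 31.8% with 1 replicate left out. The share in a protein-coding gene moved little under any of its 6 alternatives.

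The odds ratio of X against autosomal loci (1.75) stayed above 1 in all 9 alternatives. It missed the threshold when genes were counted (1.45) and in replicate 1 alone (range over the replicates 1.53 to 2.38); the cause was not tested. The alternatives of loci of 1 gene and of genes with under 50% recurring words were chosen after seeing the data. Read depth is unknown, so how it limits a list cannot be given, and ranks from different lists have no common scale.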
